A study of Danio rerio with 26 samples.

Results

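Isolated accessible sites were taken from the consensus ATAC-seq peaks of early wild-type zebrafish embryos. A peak counted as isolated when the peak-free gap to the previous and to the next peak on its chromosome was over 50 kb and under 200 kb on each side. Of the 25521 peaks on the 25 assembled chromosomes, 2032 (7.96%) met this rule. The whole list held 25975 peaks, and the 454 on unplaced scaffolds were not considered. Because the positions themselves chose the members, gaps and counts are given as a description, without a test.

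In ATAC-seq, the Tn5 transposase cuts DNA that is not covered by nucleosomes and tags the cut ends for sequencing, which marks accessible chromatin. The list joins 17 libraries from pools of deyolked wild-type embryos at 7 stages without any treatment: 256-cell (2 libraries), high (3), oblong (3), sphere (2), dome (3), shield (2) and 80% epiboly (2). The authors called the peaks on short, nucleosome-free fragments by stage and merged them across the stages, so the list gives a chromosome, a start and an end for each peak but no stage, height or library. The depth behind each peak is therefore unknown, no replicate spread can be given, a gap is a stretch without a called peak rather than one shown to be closed, and the labelled tissue could not be checked against markers. The stages run from before the onset of zygotic transcription to gastrulation.

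Early zebrafish embryos live on maternal RNA and protein until their own genome is switched on during zygotic genome activation. Accessible sites at this time include promoters, where transcription starts, and enhancers, which can act on a promoter over a distance. Maternal factors such as Pou5f3, Sox19b and Nanog bind many of these sites. A single peak in a long peak-free stretch is an accessible site with no other called site close by. Coordinates are those of Zv10, counted from 1. No sequence or gene annotation of this build was used here, so no peak was assigned to a gene or read for motifs.

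The gaps around the isolated peaks were spread over most of the allowed range. The smaller of the 2 gaps had a median of 71.0 kb (quartiles 59.2 and 90.1 kb), and the larger a median of 118.0 kb (quartiles 90.9 and 153.7 kb). The gap before the peak and the gap after it were alike, with medians of 90.97 and 89.99 kb. The larger gap lay before the peak in 966 cases and after it in 1066. The larger gap of a peak was 1.46 times the smaller at the median, and in 453 peaks (22.3%) one gap was more than 2 times the other. Together the isolated peaks bordered 3423 different gaps, which summed to 342.6 Mb, or 25.6% of the 1339 Mb between the first and last peaks of the chromosomes.

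The bounds of the rule cut through a continuous range. The members just inside the lower bound were a peak on chromosome 13 from 36008384 to 36008750, with a smaller gap of 50.04 kb, and, with equal smaller gaps of 50.045 kb, one on chromosome 2 from 2109029 to 2109470 and one on chromosome 17 from 11014243 to 11014541. Just outside it were a peak on chromosome 13 from 51408798 to 51409500, with 49.98 kb, and one on chromosome 8 from 23857271 to 23857589, with 49.96 kb. At the upper bound, the last members inside it had a larger gap of 199.9 kb each (chromosome 14, 40704580 to 40704863, and chromosome 20, 30675975 to 30676187). The first peaks outside it had one of 200.3 kb each (chromosome 18, 41103287 to 41103487, and chromosome 9, 49027040 to 49027731).

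All other peaks fell into 4 kinds. Another 1097 peaks (4.30%) also had both gaps over 50 kb, but at least one of 200 kb or more, and so fell outside the upper bound. The smaller gap of these had a median of 106.2 kb and was between 50 and 100 kb in 508 of them, within the range of the members, and 200 kb or more in 167. A further 9351 (36.6%) had 1 gap over 50 kb and thus stood at the border of a group, 12991 (50.9%) had none, and 50 were the first or last peak of a chromosome.

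Width was not used by the rule, and isolated peaks were on the whole narrower. Their median width was 304 bp (95% interval of the median 300 to 308 bp), against 317 bp (315 to 318 bp) for the 23489 other peaks. The mean was 322.3 ± 107.8 bp (SD, n = 2032 peaks) against 345.6 ± 129.8 bp (SD, n = 23489 peaks), a difference of -23.3 bp that is small beside the spread among peaks. Peaks of one merged set are not replicates, so this difference was not tested. The intervals given here, from order statistics for medians and by the Wilson method for shares, cover counting error only and treat peaks as independent, which neighbouring peaks are not.

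**Figure D1:**
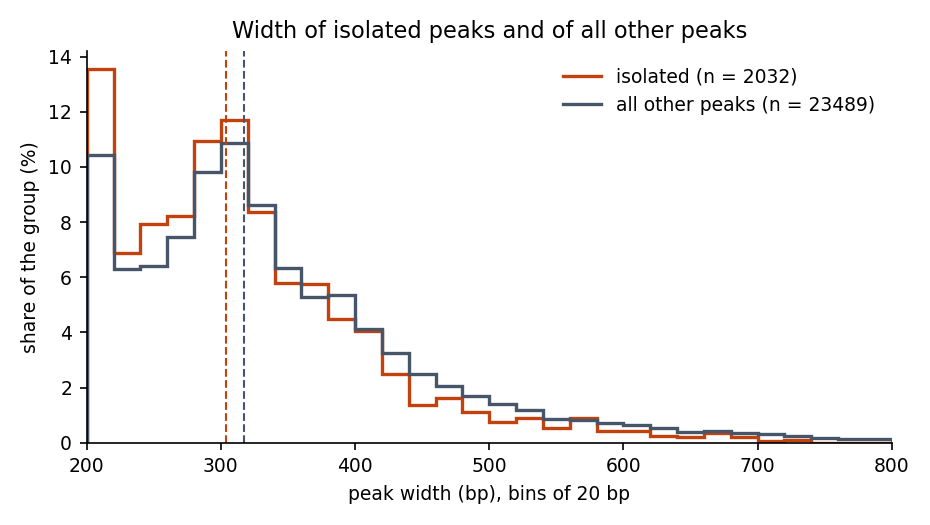
Width of the 2032 isolated peaks and the 23489 other peaks in bins of 20 bp (x axis, bp), each as a share of its group (y axis, %). Dashed lines mark the medians of 304 and 317 bp. The isolated peaks hold more of the narrow widths and fewer above 400 bp, and the distributions overlap over nearly their whole range. Widths over 800 bp are not drawn.

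The distance between the groups was larger at the wide end, though it did not grow at every step. The list starts at 200 bp, which leaves little room for a difference among the narrowest peaks. At the 10th percentile, isolated peaks measured 211 bp and the others 218 bp, which is 7 bp more. The difference was 14 bp at the lower quartile (251 against 265 bp) and 13 bp at the median (304 against 317 bp). It was 26 bp at the upper quartile (365 against 391 bp) and 54 bp at the 90th percentile (438 against 492 bp). Widths over 400 bp were found in 321 isolated peaks, a share of 15.8% (14.3 to 17.4%), against 22.6% (22.1 to 23.2%) of the others. Widths of 600 bp or more were found in 45 isolated peaks, or 2.21% (1.66 to 2.95%), against 4.44% (4.19 to 4.72%) of the others.

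At the narrow end, 92 isolated peaks had exactly 200 bp, the smallest width in the list. This was a share of 4.53% (3.71 to 5.52%), against 3.19% (2.97 to 3.42%) of the other peaks. Widths under 250 bp were found in 24.5% (22.7 to 26.4%) of the isolated peaks and 19.9% (19.4 to 20.5%) of the others. Both shares were higher among isolated peaks, with intervals that lay apart, but these cover counting error only and treat peaks as independent. The share at exactly 200 bp did not rise further with longer gaps. By the gap to the nearer neighbour, over all peaks, it was 5.28% (4.42 to 6.30%) at 50 to 100 kb. It was 3.32% (2.28 to 4.82%) at 100 to 200 kb and 3.59% (1.66 to 7.62%) beyond 200 kb, with overlapping intervals. Of the 46 isolated peaks with a smaller gap of 150 to 200 kb, 0 had this width. Since the list has no heights, whether peaks at the smallest width were also the weakest was not tested.

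The width of isolated peaks lay at the end of a gradient rather than apart from other peaks. Peaks whose nearer neighbour was at most 1 kb away had a median width of 334 bp (330 to 337 bp). The median was 325 bp (323 to 328 bp) at 1 to 5 kb, 311 bp (309 to 313 bp) at 5 to 20 kb and 308 bp (306 to 310 bp) at 20 to 50 kb. It was 303 bp (299 to 307 bp) at 50 to 100 kb, 302 bp (296 to 308 bp) at 100 to 200 kb and 307 bp (294 to 317 bp) beyond 200 kb. Most of the fall in width thus came within the first 20 kb, and the intervals of the classes from 20 kb on overlapped. The share of peaks of 600 bp or more also fell, from 7.08% at up to 1 kb and 5.30% at 1 to 5 kb to 2.16% at 50 to 100 kb and 2.17% at 100 to 200 kb.

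**Figure D2:**
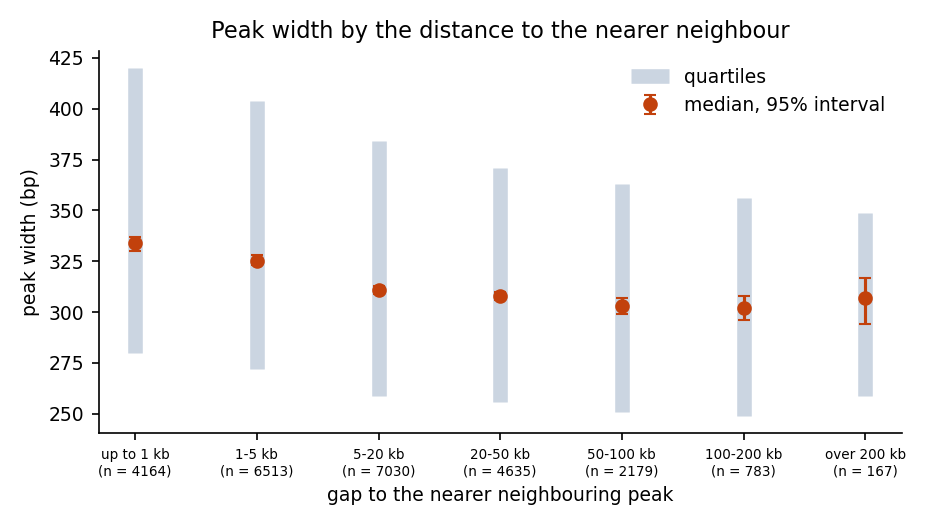
Peak width (y axis, bp) in 7 classes of the gap to the nearer neighbour (x axis), over all peaks with a neighbour on both sides. Points are medians with their 95% interval, grey bars span the quartiles, and n is the number of peaks. Medians fall from 334 bp at up to 1 kb to 303 bp at 50 to 100 kb and stay near that level beyond. The y axis does not start at 0.

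Width also differed between the kinds of peaks defined by their gaps. Peaks with no gap over 50 kb had a median width of 324 bp (322 to 326 bp), those with 1 such gap 311 bp (309 to 313 bp), the isolated peaks 304 bp (300 to 308 bp) and the peaks outside the 200 kb bound 302 bp (297 to 307 bp). The intervals of the last 2 of these overlapped. Among the isolated peaks themselves, those with a smaller gap of 50 to 75 kb (1156 peaks) and of 75 to 100 kb (515 peaks) both had a median of 304 bp. The 315 peaks at 100 to 150 kb had a median of 302 bp (289 to 313 bp), and the 46 peaks at 150 to 200 kb one of 286.5 bp (258 to 330 bp), an interval wide enough to include the other medians.

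Width was lower on most chromosomes. The median of the isolated peaks was below that of the other peaks on 22 of the 25 chromosomes, by up to 31 bp on chromosome 19 (291 against 322 bp). The exceptions were chromosomes 4, 17 and 21, where isolated peaks were wider by 1, 5 and 2 bp. With 51 to 119 isolated peaks a chromosome, the interval of a single median was wide, for example 263 to 327 bp on chromosome 19, and the interval lay wholly below the median of the other peaks on 5 chromosomes (1, 2, 7, 13 and 18) and wholly above it on 0.

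The 5 widest isolated peaks were each on a different chromosome. The widest, of 1423 bp, lay on chromosome 4 from 15211313 to 15212735. It was followed by a peak of 1405 bp on chromosome 19, which began at 31944316 and ended at 31945720. The next measured 1119 bp (chromosome 20, 16648497 to 16649615) and 1063 bp (chromosome 16, 2641314 to 2642376). The fifth, of 969 bp, was found on chromosome 6 between 8185274 and 8186242. Widths over 1 kb were thus found in 4 isolated peaks, or 0.197% (0.077 to 0.505%). Among the others they were found in 78, or 0.332% (0.266 to 0.414%), and the intervals overlapped. The peak on chromosome 4 was flanked by gaps of 77.3 and 99.1 kb, and that on chromosome 19 lay between a gap of 126.7 kb and one of 51.2 kb, close to the lower bound.

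The 5 members with the largest smaller gap were narrow or of ordinary width. On chromosome 18, the peak from 16543264 to 16543560 (297 bp) had 195.5 kb without a peak before it and 199.3 kb after it. A peak of 298 bp on chromosome 10, from 25940112 to 25940409, had a smaller gap of 184.8 kb. The smaller gap was 184.2 kb for a peak of 254 bp on chromosome 19 (37736891 to 37737144) and 183.6 kb for one of 321 bp on chromosome 15 (6196127 to 6196447). For the last, of 247 bp on chromosome 5 (54772432 to 54772678), it was 182.2 kb. Within 500 kb to either side, these 5 peaks had 15, 12, 16, 10 and 10 other peaks, so the empty stretches around them ended within regions that did hold accessible sites. All 5 numbers were below the medians of 18 for isolated peaks and 22 for the other peaks, so these regions were sparser than usual.

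Every chromosome held isolated peaks, from 51 on chromosome 22 to 119 on chromosome 5. As a share of the peaks of a chromosome, they ranged from 6.52% (5.16 to 8.19%) on chromosome 19 to 11.0% (9.15 to 13.1%) on chromosome 9, with a median of 7.83%. Chromosome 9 (108 of 986 peaks) and chromosome 12 (82 of 805 peaks, 10.2%, 8.28 to 12.5%) were the 2 chromosomes whose interval lay wholly above the 7.96% of all chromosomes. No interval lay wholly below it. The 25 intervals were not adjusted for their number, and the peaks of a chromosome are not independent. Chromosomes 9 and 12 also had few peaks for their length, 17.3 and 16.4 per Mb, but chromosome 4, with 10.8 per Mb, had an isolated share of only 6.91% (5.37 to 8.85%). Chromosome 18, with 17.4 per Mb, had a share of 8.92% (7.21 to 11.0%), an interval that held 7.96%. Whether peak density bears on the share of a chromosome was not tested. For chromosome 3 the share was 6.67%, for chromosome 7 7.27% and for chromosome 25 8.75%.

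**Figure D3:**
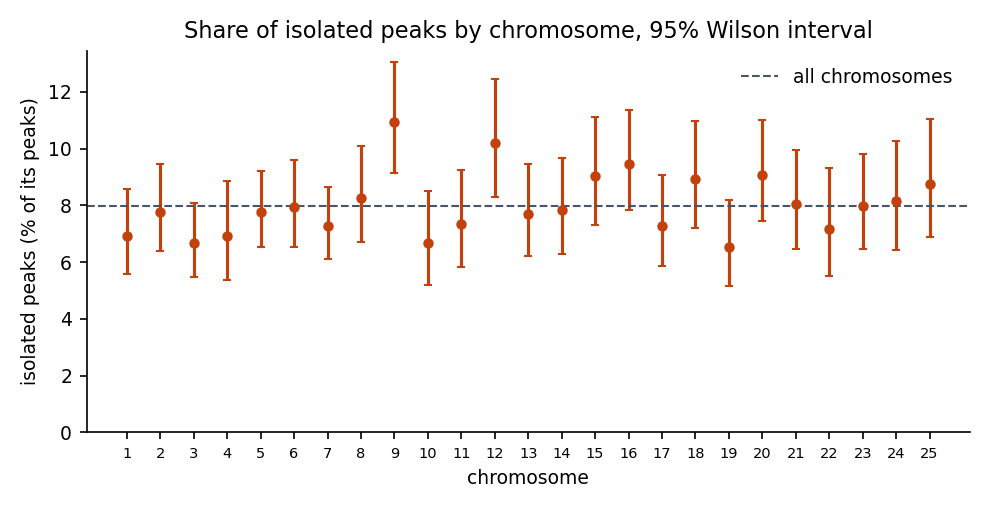
Isolated peaks as a share of all peaks of each chromosome (y axis, %), for chromosomes 1 to 25 (x axis). Points are the shares, bars their 95% Wilson intervals, and the dashed line is the 7.96% of all chromosomes together. Chromosomes 9 (11.0%) and 12 (10.2%) lie above the line with their whole interval. The intervals are not adjusted for the number of chromosomes.

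Chromosome 4 held 57 isolated peaks, 38 of them before 28 Mb and 19 from there on, in the part that contains its long heterochromatic arm. The isolated shares of the parts were similar, 6.57% (4.83 to 8.90%) of 578 peaks before 28 Mb and 7.69% (4.98 to 11.7%) of 247 peaks after it. The parts differed in the peaks with both gaps over 50 kb that the upper bound of 200 kb leaves out. These made up 27.1% (22.0 to 33.0%) of the peaks from 28 Mb on, 67 in number, against 4.33% (2.95 to 6.31%) before it, and the median gap was 61.7 kb against 19.8 kb. From 28 Mb on, the rule thus leaves out most of the peaks with both gaps over 50 kb, and the low peak density of chromosome 4 does not appear as a high share of isolated peaks.

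A smaller part of the isolated peaks than of the other peaks lay near the chromosome ends, measured from the first and last peak of each chromosome. Of the isolated peaks, 48 (2.36%, 1.79 to 3.12%) lay within 1 Mb of the first or last peak, against 7.94% (7.60 to 8.29%) of the other peaks. Within 2 Mb the shares were 6.79% (5.78 to 7.97%) and 12.8% (12.3 to 13.2%), within 5 Mb 17.5% (15.9 to 19.2%) and 24.2% (23.7 to 24.8%), and within 10 Mb 37.3% (35.2 to 39.4%) and 41.6% (41.0 to 42.2%). The rule bears on these shares, since first and last peaks cannot be members, no member can lie within 50 kb of them, and gaps are shorter where peaks are dense. The shares set isolated peaks against other peaks, not against the length of chromosome covered. They therefore do not show whether isolated peaks were few for that length or other peaks many.

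The median distance to the nearer end was 13.4 Mb (12.9 to 13.9 Mb) for isolated peaks and 12.7 Mb (12.5 to 12.9 Mb) for the others. The lower quartiles were 6.82 and 5.25 Mb in the same order. At the upper quartile the order was turned, with 19.3 Mb for isolated peaks and 20.2 Mb for the others. On single chromosomes, the median distance was larger for isolated peaks on 15 of 25 chromosomes. There was no side that they preferred: 1005 were nearer to the first peak and 1027 nearer to the last. The farthest isolated peak from an end was 37.5 Mb away and the nearest 0.0566 Mb.

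**Figure D4:**
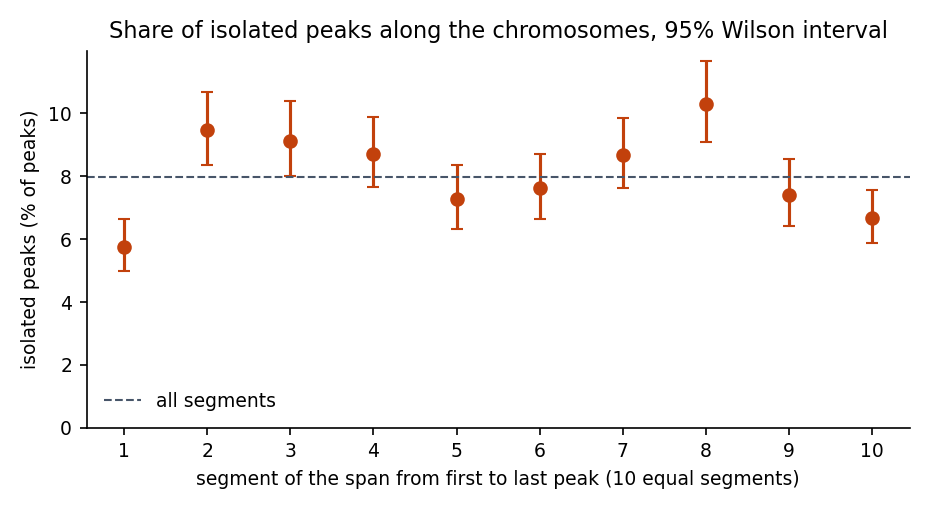
Share of peaks that were isolated (y axis, %) in each of 10 equal segments of the span between the first and last peak (x axis), over all 25 chromosomes. Points are shares, bars 95% Wilson intervals, and the dashed line is the 7.96% of all segments together. Segments 1 and 10 are the lowest, at 5.77% and 6.68%, and segments 2 and 8 the highest, at 9.46% and 10.3%.

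Along the chromosomes, divided into 10 equal segments between the first and last peak, the share of peaks that were isolated had more than one high and low point. It was 5.77% (4.99 to 6.65%) in segment 1 and 6.68% (5.88 to 7.58%) in segment 10. These 2 segments held 8.71% and 10.9% of the isolated peaks, and 12.3% and 13.2% of the other peaks. The low shares there thus went with many other peaks, and segment 10 was not poor in isolated peaks. The share reached 9.46% (8.35 to 10.7%) in segment 2 and 10.3% (9.10 to 11.7%) in segment 8. In between it fell to 7.28% (6.32 to 8.37%) in segment 5, whose interval lay apart from that of segment 8 and overlapped that of segment 2 by a narrow margin. Isolated peaks were narrower than the others in each of the 10 segments, with medians of 294 to 313 bp against 312 to 322 bp.

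Isolated peaks were not limited to sparse regions. Within 500 kb to either side, an isolated peak had a median of 18 other peaks (quartiles 13 and 23, range 2 to 71), against 22 (quartiles 16 and 28) for the other peaks. Some lay in dense regions, since 155 isolated peaks (7.63%) had over 30 others within 500 kb, against 19.3% of the other peaks. Isolated peaks made up 11.1% of the peaks with at most 5 others within 500 kb, 13.6% of those with 6 to 10, 12.5% of those with 11 to 15 and 3.31% of those with over 30. A lower number is built into the rule, which empties at least 100 kb around each member.

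The lower width of isolated peaks was seen at most local densities. In the regions with over 30 peaks, isolated peaks had a median width of 293 bp (283 to 305 bp) and the others 325 bp (322 to 328 bp), the widest separation among the 6 classes of density. With 11 to 15 peaks, the medians were 302 bp (294 to 310 bp) and 314 bp (311 to 318 bp). With 16 to 20 they were 304 bp (296 to 313 bp) and 316 bp (314 to 319 bp). With 21 to 30 they were 309 and 317 bp and with 6 to 10 they were 304 and 310.5 bp, and in both classes the intervals overlapped. In the sparsest regions, with at most 5 other peaks, the order was turned, at 321 bp (294 to 359 bp) for 41 isolated peaks and 299 bp (290 to 307 bp) for 329 others, again with overlapping intervals.

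Isolated peaks followed one another about as often as peaks at the end of any gap of 50 to 200 kb were isolated. Of the 4064 neighbours counted over both sides, 1282 (31.5%) were themselves isolated. A neighbour already borders a gap of 50 to 200 kb. Of the 12892 peak positions at the ends of all 6446 such gaps, 31.5% were held by an isolated peak. The positions so held border the isolated peaks' own gaps, so the 2 shares are not independent. Gaps of 50 to 200 kb made up 25.3% of all gaps, which is below both shares. Of the 2032, 949 (46.7%) had no isolated neighbour, 884 had 1 and 199 had an isolated peak on both sides. They formed 1391 runs, of which 442 held 2 or more successive isolated peaks. The runs of 2 or more held 1083 isolated peaks (53.3%), in 306 runs of 2, 94 of 3, 31 of 4, 6 of 5, 2 of 6, 2 of 7 and 1 of 9. Successive isolated peaks share the gap between them, so they do not meet the rule independently of each other.

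The longest run was on chromosome 6, where 9 isolated peaks in a row spanned 861.6 kb from 8185274 to 9046861. It began with the fifth widest isolated peak, of 969 bp, and a later peak, from 8361728 to 8362344, was 617 bp wide. The remaining 7 measured 212, 247, 220, 210, 223, 205 and 352 bp in their order along the chromosome, so that 6 of them were below the lower quartile of 251 bp. They began at 8257837, 8468995, 8568690, 8629655, 8739459, 8895298 and 9046510. The gaps between the 9 peaks ranged from 60.7 to 155.6 kb.

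**Figure D5:**
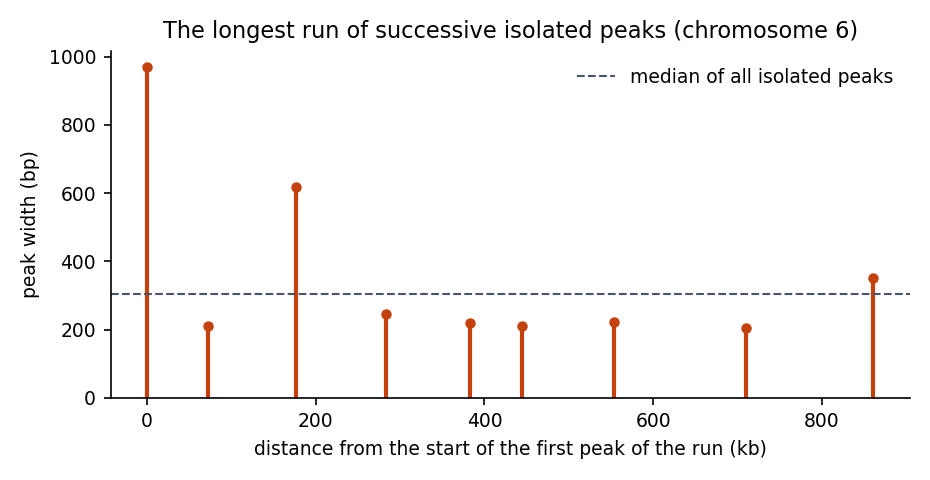
Width (y axis, bp) of the 9 successive isolated peaks on chromosome 6 against the distance from the start of the first (x axis, kb). Each stem is a peak, and the dashed line is the median of all isolated peaks, 304 bp. The peaks of 969 and 617 bp stand out, and 6 of the 9 lie between 205 and 247 bp.

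Next in length were runs of 7 on chromosome 2 from 46562318 to 47239299 (677.0 kb) and on chromosome 3 from 8011308 to 8631991 (620.7 kb). Runs of 6 lay on chromosome 5 from 51520054 to 51950650 and on chromosome 10 from 39727870 to 40198514.

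Across the gap, isolated peaks met lone peaks and groups alike. The gap beyond the neighbour had a median of 33.5 kb (quartiles 8.76 and 86.4 kb), against 21.3 kb (quartiles 4.77 and 63.9 kb) for all gaps between peaks. It was under 5 kb in 763 cases (18.8%), against 25.6% of all gaps, and over 50 kb in 1603 cases (39.5%), against 30.6%. The rule for an isolated peak does not set the gap beyond its neighbour. Where the neighbour is itself isolated, however, this gap is also one of a member's own gaps, which the rule bounds. That 1282 neighbours were themselves isolated follows from this gap being over 50 kb and under 200 kb, so it is no separate result. Their share of 31.5% was the same as at the ends of all gaps of 50 to 200 kb. On this count the neighbours of isolated peaks did not stand apart from other ends of such gaps. The differences from all gaps were not tested. The neighbours that were not isolated had a median width of 308 bp (quartiles 258 and 378 bp), between those of isolated peaks and of all other peaks. Each of them borders a gap over 50 kb. Their median also lay between the 311 bp of all peaks with 1 such gap and the 302 bp of those outside the 200 kb bound.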

How the data were processed

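Reads came from 26 libraries, 1 of them of tagmented genomic DNA. The peaks of the deposited list came from the 17 wild-type ATAC-seq libraries, with the genomic DNA as background. The authors trimmed reads (cutadapt 1.9.1), aligned them to Zv10 (Bowtie2 2.2.4), and filtered out duplicate, mitochondrial and poorly mapping reads, which thins reads in repeats and can lengthen gaps. They called nucleosome-free peaks by stage on pooled replicates with MACS2 2.1.1 against tagmented genomic DNA, retained peaks seen in each single replicate, and joined overlapping peaks across wild-type stages, which can widen a peak. The list was deposited by the authors as positions in bp, with no signal or score. Versions are from the submitters' processing notes.

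Peaks were sorted by start. A gap is the start minus the end of the neighbour. The list does not say whether starts count from 0 or 1. They were read as counted from 0, which puts the smallest width at 200 bp, and the other reading would shift starts and widths by 1 bp. Python 3.11.15, numpy 2.4.6, pandas 2.3.3, scipy 1.17.1 and matplotlib 3.10.9 were used, and the rule was tested on simulated positions. Intervals are at 95%. The members, classes and regions named were chosen with earlier results of these data known. The regions named are the 5 widest members, the 5 with the largest smaller gap, the longest run and the 2 peaks on each side of each bound (3 where values were tied). Runs of 6 and 7 were named after their values were seen. Gene distance, GC content and motifs had been planned. They were not run, because the gene table at hand is of another assembly than Zv10. The mutant and α-amanitin libraries were not analysed here.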

Additional observations from a re-analysis of the deposited data

Results flagged for a closer look

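Outside the assembled chromosomes, 454 peaks were called on 248 unplaced scaffolds, data that the comparisons above do not use. None of them met the gap rule (0 of 454), and 359 had no neighbour on at least one side. Their median width was 319.5 bp.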

How the results depend on the processing

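Over 7 alternatives, 33 of 41 values stayed within the range allowed, which was 1.5 times for the number of peaks and the 95% interval of the reported value otherwise. The values share most of their peaks, so this is no rate of stability. The number of isolated peaks was 4146 with gaps over 30 kb, 361 with gaps over 100 kb and 3129 with no upper bound, each by construction of the rule. Isolated peaks were narrower than the others under all 7 alternatives, by 12 to 15 bp in the median. The median width of the other peaks was 320 bp both after merging gaps of up to 500 bp and without peaks of the minimum width, against 317 bp. The share of isolated peaks within 5 Mb of an end was 20.9% (19.7 to 22.2%) with gaps over 30 kb, against 17.5%. With gaps over 100 kb it was 15.5% (12.1 to 19.6%), and the median distance to the nearer end was 14.4 Mb (13.1 to 15.2 Mb), against 13.4 Mb. These last 2 values rest on 361 peaks, and their own intervals held the reported values. The cause of the changes was not tested. Without peaks of the minimum width, their share has no value. Measuring from midpoints and leaving out chromosome 4 changed none of these values beyond the range. No paired analysis was possible because the merged list has no replicates to pair, so none could be dropped either. The unknown depth limits which sites were called, and a missed peak would lengthen a gap.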

Other observations

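Single peaks were also set beside larger groups, a division chosen after the data were seen. Peaks were joined into one group as long as the gap between neighbours was at most 50 kb, which gave 7833 groups on the 25 chromosomes. Groups of a single peak were the most frequent kind, 3136 in number (40.0% of the groups and 12.3% of the peaks), and 2032 of them were the isolated peaks. There were 1554 groups of 2, 943 of 3, 993 of 4 to 5, 837 of 6 to 10 and 370 of 11 or more. The last kind made up 4.72% of the groups and held 22.9% of the peaks. The largest held 47 peaks on chromosome 25 from 34514949 to 34684720.

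Peak width rose with the size of the group. The median was 303 bp (95% interval 300 to 306 bp) for single peaks, 308 bp (305 to 311 bp) in groups of 2 and 310 bp (307 to 313 bp) in groups of 3. It was 315 bp (313 to 318 bp) in groups of 4 to 5, 320 bp (317 to 322 bp) in groups of 6 to 10 and 330 bp (327 to 333 bp) in groups of 11 or more. The share of peaks of exactly 200 bp was 4.75% among single peaks and 2.71% in groups of 11 or more. In between it was 3.60%, 3.85%, 3.14% and 2.82% in order of size, so it did not fall at every step. These values are a description without a test.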
